A study of Mus musculus with 6 samples.

Results

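The genes examined encode succinate dehydrogenase (complex II), the cytochrome bc1 complex (complex III), cytochrome c and the ATP synthase, together with their dedicated assembly factors. They were taken by symbol from the deposited gene tables: every symbol starting with Atp5, Uqcr, Sdhaf or Atpaf, the succinate dehydrogenase subunits Sdha to Sdhd, and Cyc1, Cycs and Cyct. The rule found 38 of the 24411 genes in the files, and all 38 passed the filter on low counts that left 17110 genes for testing. RNA came from frozen testes of C57BL/6 mice, an inbred laboratory strain, matched for age. One group of 3 libraries carried the genotype label MRP5-/- and MRP9-/- and is called labelled DKO; the other 3 carried the label Wildtype and are called labelled WT. The membrane transporters MRP5 and MRP9 belong to the ABCC family and are encoded by Abcc5 and Abcc12. The ages, the design of the mutant alleles and whether each library is 1 animal are not given in the sources used here.

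Complex II oxidizes succinate and reduces ubiquinone, complex III passes electrons from ubiquinol to cytochrome c while pumping protons, and the ATP synthase uses the proton gradient to make ATP. All nuclear subunits are imported into mitochondria; the mitochondrially encoded subunits are not analysed here. The testis uses 2 cytochrome c genes: Cycs is expressed in somatic and early germ cells, and Cyct is the germ cell isoform that appears during meiosis and persists in sperm. Cytochrome c also takes part in apoptosis once it leaves the mitochondrion.

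Library facts that touch every value below are as follows. Expected counts per library ranged from 42673615 to 67131103 in the libraries labelled DKO and from 26753721 to 31745969 in those labelled WT. The mean fragment length was 317, 289 and 275 bases in the libraries labelled DKO and 258, 230 and 246 bases in those labelled WT (p = 0.1 by a two-sided exact permutation test, which cannot go lower with 3 libraries a group). Depth and fragment length thus did not overlap between the groups, and neither can be told apart from genotype. Abcc12 had 72.6 to 82.4 CPM (counts scaled to TMM-normalised library size) in the libraries labelled DKO against 158 to 165 CPM in those labelled WT. Abcc5 was instead higher in the libraries labelled DKO (16.7 to 17.0 against 10.5 to 12.3 CPM). Its deposited length also differed, at 5405 to 5605 bases against 4831 to 5150. EdgeR called Abcc5 higher in the counts (log2 fold change 0.56, adjusted p = 0.0225). With the effective-length offset described below it was also called higher (0.38, edgeR adjusted p = 0.0336). In TPM, which divide by length, Abcc5 had 4.48 to 4.84 against 3.28 to 3.96 and was not called (limma on log2(TPM + 1), adjusted p = 0.107). As the allele design is not given, the Abcc5 count does not decide the genotype, and groups are named by label. All 10 spermatid markers and all 8 spermatocyte markers checked were present at counts that passed the filter. In whole tissue, fewer cells of a type and less RNA per cell cannot be told apart.

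Bases 1 to 300 of the coding sequences of Cycs (chr6:50562563-50566569, minus strand) and Cyct (chr2:76353942-76360453, minus strand) are shown because the results of the 2 genes differ and their fragments must be told apart. They come from GENCODE M21 transcripts that carry the RefSeq accessions of the files, on GRCm38, and capitals mark the bases that differ.
Cycs: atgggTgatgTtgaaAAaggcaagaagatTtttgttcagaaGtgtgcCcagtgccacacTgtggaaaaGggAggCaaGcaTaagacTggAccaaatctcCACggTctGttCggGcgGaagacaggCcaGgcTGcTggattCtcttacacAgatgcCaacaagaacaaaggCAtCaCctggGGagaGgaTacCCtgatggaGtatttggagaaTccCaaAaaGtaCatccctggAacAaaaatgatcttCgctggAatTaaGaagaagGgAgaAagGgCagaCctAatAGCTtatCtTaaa
Cyct: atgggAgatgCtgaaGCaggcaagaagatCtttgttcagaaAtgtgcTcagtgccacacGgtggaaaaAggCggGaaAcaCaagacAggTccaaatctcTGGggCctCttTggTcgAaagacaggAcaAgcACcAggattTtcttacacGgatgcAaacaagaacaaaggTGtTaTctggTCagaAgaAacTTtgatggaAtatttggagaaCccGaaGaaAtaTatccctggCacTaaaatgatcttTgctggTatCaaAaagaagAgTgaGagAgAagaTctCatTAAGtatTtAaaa
The full coding sequences have 318 bases each and were compared position by position. They differed at 76 bases, 66 of them in the stretch shown (76.1% identical), and the longest run they share in any register is 14 bases. No library had a fractional expected count for either gene, which is how fragments shared between genes appear in these files. Outside the coding part the genes differ in size: the mean deposited length was 3059 bases for Cycs and 658 bases for Cyct.

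The upstream 250 bases of Cycs and of Atp5k are shown for the motifs found in them. Cycs was the only member called higher in the counts, and Atp5k had the smallest p among the members in that edgeR fit. With the effective-length offset described below, Atp5k was not called (edgeR adjusted p = 0.205). Both sequences come from RefSeq promoters on GRCm38.p6, which held an entry for 32 of the 38 genes, and capitals mark the motif. In Cycs (chr6:50566570-50566819, minus strand) it is the cyclic AMP response element TGACGTCA, and in Atp5k (chr5:108434400-108434649, minus strand) the palindromic core motif of the nuclear respiratory factor NRF-1. No searched motif overlaps another in these windows.
Cycs upstream: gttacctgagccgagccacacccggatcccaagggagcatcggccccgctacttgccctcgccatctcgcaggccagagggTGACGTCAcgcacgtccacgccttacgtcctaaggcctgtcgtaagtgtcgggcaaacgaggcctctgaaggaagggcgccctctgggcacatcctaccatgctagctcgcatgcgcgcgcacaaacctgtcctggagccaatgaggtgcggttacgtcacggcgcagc
Atp5k upstream: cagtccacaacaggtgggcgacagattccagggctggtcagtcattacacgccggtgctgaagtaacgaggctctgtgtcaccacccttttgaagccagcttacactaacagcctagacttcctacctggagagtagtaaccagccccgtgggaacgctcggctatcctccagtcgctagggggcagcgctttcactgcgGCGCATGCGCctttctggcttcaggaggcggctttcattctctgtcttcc
Over the 300-base windows of the table, read on both strands, TGACGTCA was present in 2 of the 32 genes (Cycs and Uqcrfs1) and in 1.79% of all 32851 promoters. The NRF-1 core, with the letters in capitals in the Atp5k sequence, was present in 3 genes (Uqcrc1, Atp5g2 and Atp5k) and in 0.971% of all promoters. The ETS-type motif CCGGAAG was present in 12 genes and in 8.86% of all promoters, and the YY1-type motif AAGATGGC in 5 genes and in 2.75%. Of the 8 genes called in the counts that had a promoter entry, 4 held CCGGAAG (Atp5e, Atp5k, Atp5l and Uqcr11) and 0 held AAGATGGC. A gene was counted if any of its promoter entries held the motif, whereas the percentages are per promoter, so the units differ. The promoters of Uqcr10 and Cyct held none of the searched motifs. These are matches of letters and not measured binding sites.

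Of the 38 genes, 10 were called lower and 1 was called higher in the libraries labelled DKO (edgeR quasi-likelihood test on counts, adjusted p under 0.05 over all tested genes). Over all tested genes 10.8% were called, 5.1% lower and 5.75% higher. The lower genes were Uqcr10, Uqcrq, Uqcr11 and Cyc1 of complex III, Atp5k, Atp5l, Atp5d, Atp5e and Atp5g3 of the ATP synthase, and Sdhc of complex II; the higher gene was Cycs. The median log2 fold change of the 38 genes was -0.15, against -0.0042 over all tested genes, and 27 of the 38 were below 0. The CPM of the groups did not overlap for 22 genes, 17 of them lower and 5 higher in the libraries labelled DKO. Of all tested genes 35.9% had no overlap, 17.5% lower and 18.4% higher. The calls lay near the threshold, as did those over all tested genes. At an adjusted p under 0.01 edgeR called none of the 38 and 7 of all tested genes. At an unadjusted p under 0.05 (edgeR) there were 19 of the 38, against 31.7% of all tested genes. In fits without DKO replicate 1, without WT replicate 2 or without WT replicate 3, edgeR again called none of the 38, with 15, 13 and 14 of them at an unadjusted p under 0.05. Without DKO replicate 2 it called 7. The number called over all tested genes also changed widely when a library was left out, as given at the end. All 11 called genes kept their direction in the 6 fits that left out a library.

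**Figure D1:**
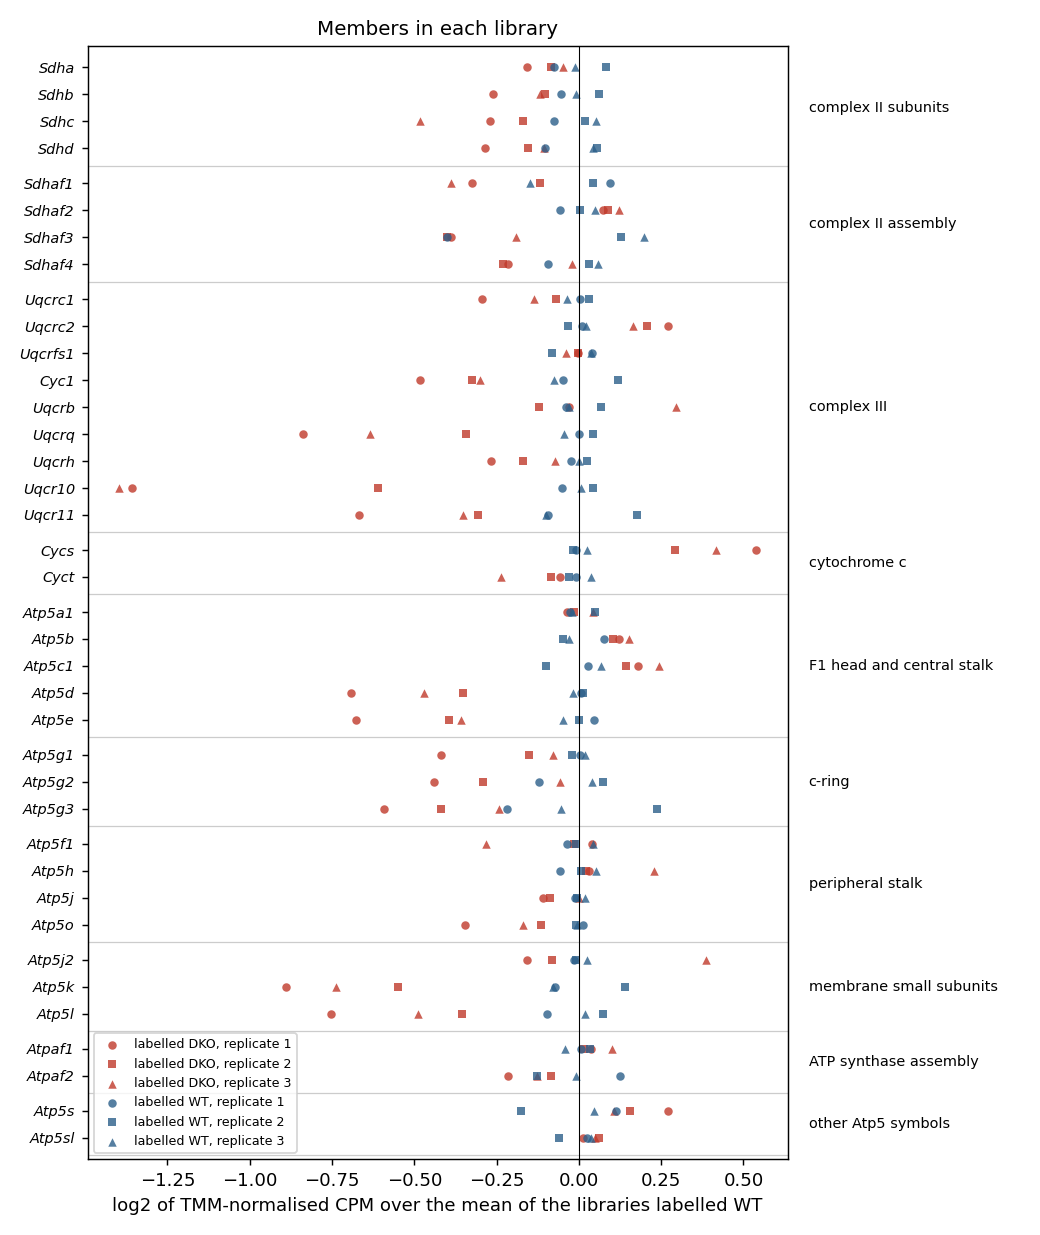
Each row is a gene, grouped by complex; the x axis is the log2 of its TMM-normalised CPM over the mean of the 3 libraries labelled WT, with a symbol for each of the 6 libraries. Uqcr10, Uqcrq, Atp5k and Atp5d lie to the left in all 3 libraries labelled DKO and Cycs to the right, while Atp5a1 and Uqcrfs1 overlap between the groups.

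The short genes carried most of these calls, so the deposited length was taken into account. RSEM gives each gene an effective length, the number of positions at which a fragment of that library can start, which shrinks when fragments are long and the transcript is short. Of the 20 genes under 1000 bases 8 were called lower and 0 higher, and their median log2 fold change was -0.26. Of the 18 genes of 1000 bases or more 2 were called lower and 1 higher, around a median of -0.01. The same trend held over the whole table: of all 211 tested genes under 500 bases 31.3% were called lower, with a median of -0.31, and of the 1581 genes from 500 to 1000 bases 13.6% were called lower, with a median of -0.12. Among the 38, 5 of 6 genes under 500 bases and 3 of 14 from 500 to 1000 bases were called lower. Across the 38 genes, which share libraries and depth, the log2 fold change increased with length (Spearman's rho 0.60).

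With an offset that puts each library's effective lengths into the edgeR fit, 7 of the 38 genes were called, 5 lower and 2 higher, against 9.7% of all tested genes (4.12% lower and 5.58% higher). Of the 11 genes called without the offset, 6 were also called with it: Uqcr10, Uqcrq, Cyc1, Atp5d and Atp5l were lower, and Cycs was higher. Atp5k, Atp5e, Uqcr11, Atp5g3 and Sdhc were no longer called, and Atp5h was called higher. Of all tested genes under 500 bases, 3.32% were called higher without the offset and 10.9% with it. From 500 to 1000 bases these shares were 4.3% and 9.04%. Called lower with the offset were 8.53% and 7.53% of the 2 length classes. The median of the 38 genes was -0.11 with the offset, against -0.0024 over all tested genes, and rho with length was 0.27. In TPM, which also divide by effective length, limma on log2(TPM + 1) called the same 5 genes lower and none higher, with 18 of the 38 at an unadjusted p under 0.05; 4.3% of all tested genes were called, 2.67% lower and 1.63% higher. On log2(TPM + 0.1) it also called Cycs higher, with 5.53% of all tested genes called, 3.37% lower and 2.16% higher. With the mean fragment length as a covariate edgeR called none of the 38 (7 at an unadjusted p under 0.05) and 1 of all tested genes, and the median of the 38 turned to 0.03. That covariate does not overlap between the groups.

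**Figure D2:**
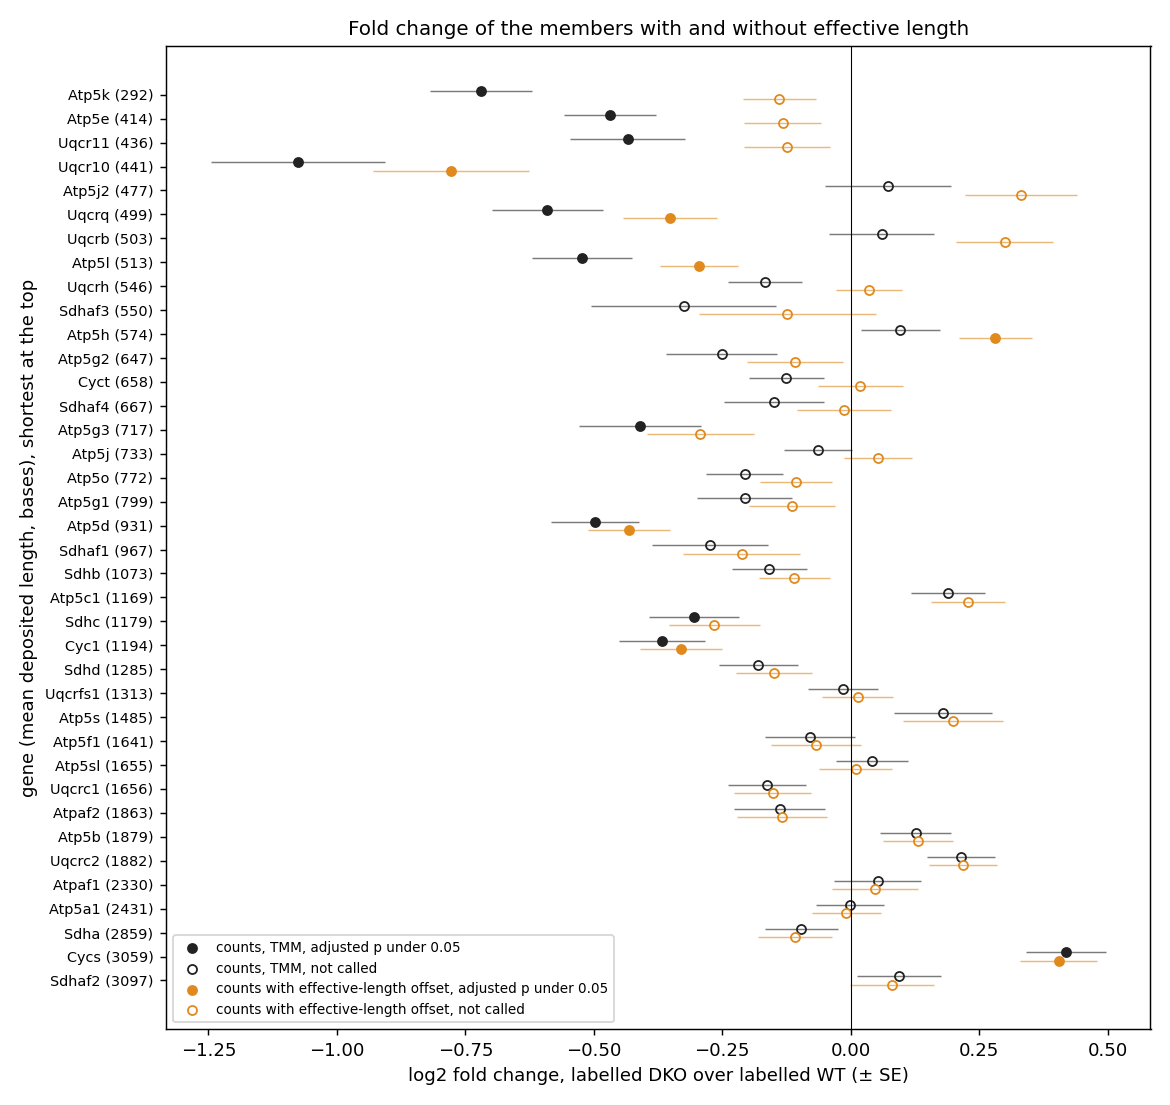
Points give the log2 fold change ± SE of each of the 38 genes, sorted by deposited length in bases with the shortest at the top, from counts (black) and from counts with the effective-length offset (orange); filled points passed an adjusted p under 0.05. The 2 estimates part at the top, where Atp5k moves from -0.72 to -0.14, and nearly coincide at the bottom, where Cycs has 0.42 and 0.40.

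Within groups, the libraries also differed in the order of their fragment lengths. DKO replicate 1, which had the longest fragments, held the lowest CPM of its group for 13 of the 20 short genes and for 9 of the 18 longer ones, and the lowest TPM for 9 and 6. WT replicate 2, which had the shortest fragments, held the highest CPM of its group for 10 of the 20 short genes and 7 of the 18 longer ones, and the highest TPM for 15 and 12. The median log2 CPM of the short genes over their WT mean was -0.40, -0.26 and -0.21 in DKO replicates 1, 2 and 3, whose fragment lengths were 317, 289 and 275 bases. In TPM these medians were -0.24, -0.18 and -0.08. In WT replicates 1, 2 and 3 the medians of the short genes were -0.03, 0.04 and 0.0027 in CPM and -0.04, 0.05 and -0.00046 in TPM. The medians of the short genes were thus below 0 in all 3 libraries labelled DKO on both scales and nearer to 0 in TPM. Those of WT replicates 1 and 2 were not nearer to 0 in TPM. Each gene was set over its WT mean, so the WT medians lie near 0 on both scales and this contrast decides nothing.

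**Figure D3:**
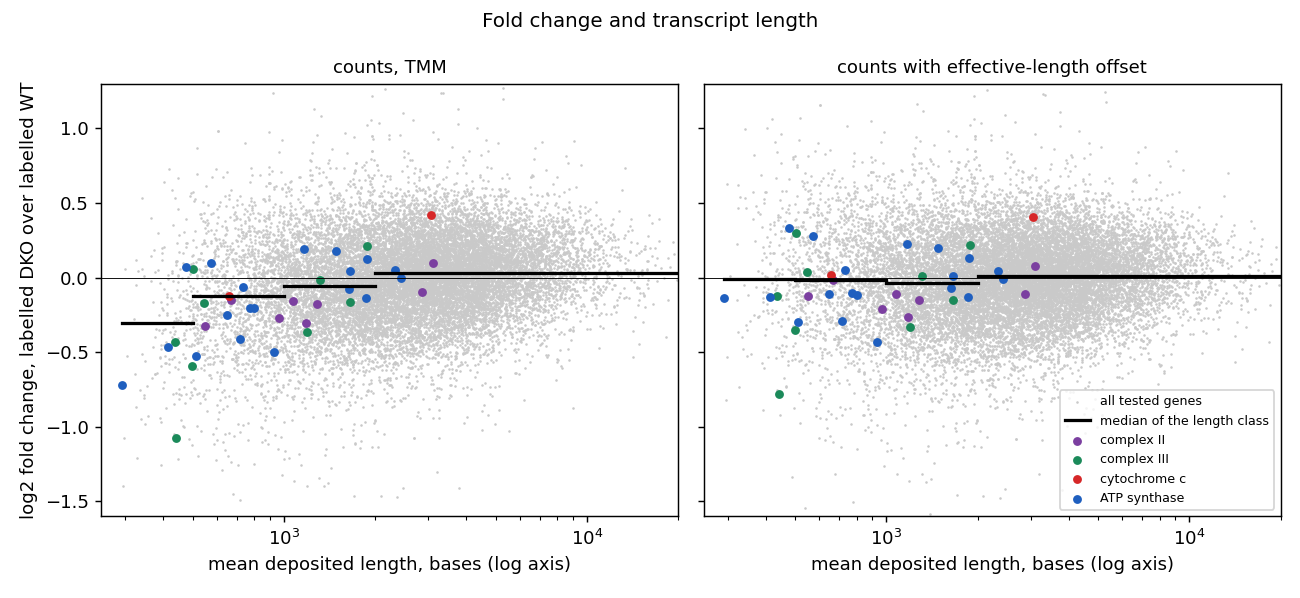
Each point is a gene, with its mean deposited length on a log axis and its log2 fold change, from counts on the left and with the effective-length offset on the right; black lines are medians of all tested genes in 4 length classes, and genes beyond the axes are not drawn. Without the offset the median of genes under 500 bases is -0.31, and with it -0.0077.

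Complex II had 1 called gene among its 4 subunits and none among its 4 assembly factors (edgeR; 1 of the 4 factors at an unadjusted p under 0.05, and 0 by DESeq2). Over all tested genes edgeR called 10.8% in the counts, with 31.7% at an unadjusted p under 0.05. Sdhc (chr1:171129157-171150640), a membrane anchor that binds the heme of the complex, had 48.5, 52.1 and 41.9 CPM in the libraries labelled DKO and 55.5, 59.4 and 60.8 CPM in those labelled WT. All 3 libraries labelled DKO were below all 3 labelled WT. The log2 fold change was -0.30 (SE 0.0876; edgeR adjusted p = 0.0488), and with the offset -0.27 (SE 0.088; adjusted p = 0.0709). Sdha, the flavoprotein that oxidizes succinate, had 159, 167 and 171 CPM against 168, 187 and 176 CPM, with overlap between the groups (log2 fold change -0.10, edgeR adjusted p = 0.381). Sdhb, the iron-sulfur subunit, had 55.5, 62.1 and 61.4 against 64.2, 69.5 and 66.2 CPM, and Sdhd, the other membrane anchor, had 48.6, 53.3 and 55.1 against 55.2, 61.6 and 61.1 CPM. Neither overlapped between the groups and neither was called (log2 fold changes -0.16 and -0.18; edgeR adjusted p = 0.163 and 0.138). The assembly factors Sdhaf1 to Sdhaf4 had log2 fold changes from -0.32 to 0.09. Per length, the 4 subunits lay close together in the libraries labelled WT, with mean TPM of 102 for Sdha, 121 for Sdhb, 94.6 for Sdhc and 86.1 for Sdhd.

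Complex III held the largest decrease of the 38 genes, in Uqcr10, while its core subunits and Rieske protein were not called by edgeR. Uqcr10 (chr11:4701968-4704344), a small subunit of the complex, had 44.2, 74.2 and 43.0 CPM in the libraries labelled DKO against 109, 117 and 114 CPM in those labelled WT. The libraries labelled WT lay within 8 CPM of one another and those labelled DKO were spread, with replicate 2 the highest. The fitted log2 fold change was -1.08 (SE 0.17; edgeR adjusted p = 0.0225) and with the offset -0.78 (SE 0.152; adjusted p = 0.028). In TPM it had 426, 601 and 376 against 807, 854 and 833, and the difference of log2(TPM + 1) was -0.86 (limma adjusted p = 0.0343). The log2 ratio of its mean effective lengths, labelled DKO over labelled WT, was -0.34.

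Uqcrq (chr11:53427922-53430831), a subunit near the quinone-binding part of complex III, had 92.9, 131 and 107 CPM in the libraries labelled DKO and 166, 171 and 161 CPM in those labelled WT. The groups did not overlap, and the log2 fold change was -0.59 (SE 0.108; edgeR adjusted p = 0.0237), or -0.35 with the offset (SE 0.0913; adjusted p = 0.0409). Cyc1 (chr15:76343513-76346260), cytochrome c1, the heme protein that hands electrons to cytochrome c, had 28.9, 32.2 and 32.8 against 39.0, 43.8 and 38.3 CPM. Its log2 fold change was -0.37 (SE 0.0833; edgeR adjusted p = 0.0307) and stayed at -0.33 with the offset (SE 0.0796; adjusted p = 0.037). Cyc1 has 1194 bases, and the log2 ratio of its effective lengths was only -0.08. Uqcr11 (chr10:80402997-80406821), another small subunit, had 19.0, 24.4 and 23.6 against 28.3, 34.1 and 28.1 CPM. Its log2 fold change was -0.43 (SE 0.112; edgeR adjusted p = 0.0374), while its effective-length ratio was -0.35 and its change with the offset -0.12 (adjusted p = 0.341).

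The remaining complex III genes did not pass the test in the counts. Uqcrc2, a core subunit, had 99.8, 95.4 and 92.7 CPM in the libraries labelled DKO and 83.2, 80.9 and 84.0 CPM in those labelled WT. The groups did not overlap, and Uqcrc2 had an edgeR adjusted p of 0.057 (log2 fold change 0.21, SE 0.0664). DESeq2 called Uqcrc2 at an adjusted p of 0.0415. Its expected counts carried fractions in all 6 libraries, and the source of these fractions was not tested. Exons of Uqcrc2 share 504 bases with Pdzd9 on the opposite strand, whose log2 fold change was 0.33. Uqcrc1, the other core subunit of complex III, had 246, 288 and 275 against 303, 308 and 295 CPM (log2 fold change -0.16; edgeR adjusted p = 0.163). Uqcrfs1, the Rieske iron-sulfur protein, had 75.4, 75.3 and 73.6 against 77.7, 71.4 and 77.5 CPM, with overlapping groups and a log2 fold change of -0.01, which was 0.01 with the offset. Uqcrb and Uqcrh had log2 fold changes of 0.06 and -0.17, and 0.30 and 0.04 with the offset. Thus 3 of the 9 complex III genes were called in both edgeR fits, all lower, and the 2 core subunits and the Rieske protein were called in neither. Over all tested genes 5.1% were called lower in the counts and 4.12% with the offset.

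Cycs, the somatic cytochrome c, rose. It had 69.5, 58.6 and 63.9 CPM in the libraries labelled DKO and 47.6, 47.3 and 48.7 CPM in those labelled WT, so that every library labelled DKO was above every library labelled WT. The mean was 134% of the WT level. The log2 fold change was 0.42 (SE 0.0773; edgeR adjusted p = 0.0237), and 0.40 with the offset (SE 0.0756; adjusted p = 0.0276). In TPM it had 35.5, 29.1 and 34.2 against 24.5, 26.5 and 26.0 (limma on log2(TPM + 1), difference 0.34, adjusted p = 0.0533). Cyct, the germ cell isoform, had 83.6, 82.1 and 74.0 CPM against 86.6, 85.3 and 89.3 CPM. Its log2 fold change was -0.12 (SE 0.072; edgeR adjusted p = 0.256) and turned to 0.02 with the offset (SE 0.0828; adjusted p = 0.902). Per length, Cyct was the more abundant gene in every library: the TPM ratio of Cyct to Cycs was 9.60, 10.4 and 8.40 in the libraries labelled DKO (9.47 ± 1.02, SD, n = 3) and 12.7, 11.9 and 12.5 in those labelled WT (12.3 ± 0.403, SD, n = 3). The ratios of the groups did not overlap.

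Some marker genes of testis cell types were called in the same comparison, and their part in these results was not tested. Over all tested genes 5.75% were called higher and 5.1% lower in the counts, and 5.58% and 4.12% with the offset. In the counts 31.7% had an unadjusted edgeR p under 0.05. On log2(TPM + 1) the shares were 1.63% higher and 2.67% lower, and DESeq2 called 2943 of the 17110 genes. Of 8 spermatocyte markers, genes of meiotic cells, 2 were called higher and 0 lower in the counts (1 higher with the offset and on log2(TPM + 1)), and their summed TPM was 1912 to 2149 in the libraries labelled DKO against 1605 to 1760 in those labelled WT. Of 10 spermatid markers 0 were called in either direction by edgeR or DESeq2 (0 at an unadjusted p under 0.05), and their summed TPM overlapped, at 108090 to 117937 against 100680 to 110163. Of 9 Sertoli markers 3 were called lower (summed TPM 1498 to 1871 against 1946 to 2460). Of 7 Leydig markers, genes of the steroid-producing cells, 3 were called lower, or 2 with the offset. The summed TPM of the Leydig markers overlapped, at 845 to 1502 against 1482 to 3105. Insl3 was the largest part of that sum in every library, and its expected counts carried fractions in all 6. Hsd3b1 went the other way (log2 fold change 0.21, not called). Of 4 markers of peritubular myoid cells 1 was called lower, or 2 with the offset, and DESeq2 called 3 (summed TPM 61.2 to 71.7 against 72.2 to 106). Of 5 macrophage and 7 spermatogonia markers 0 were called by edgeR or DESeq2 (1 and 0 at an unadjusted p under 0.05).

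**Figure D4:**
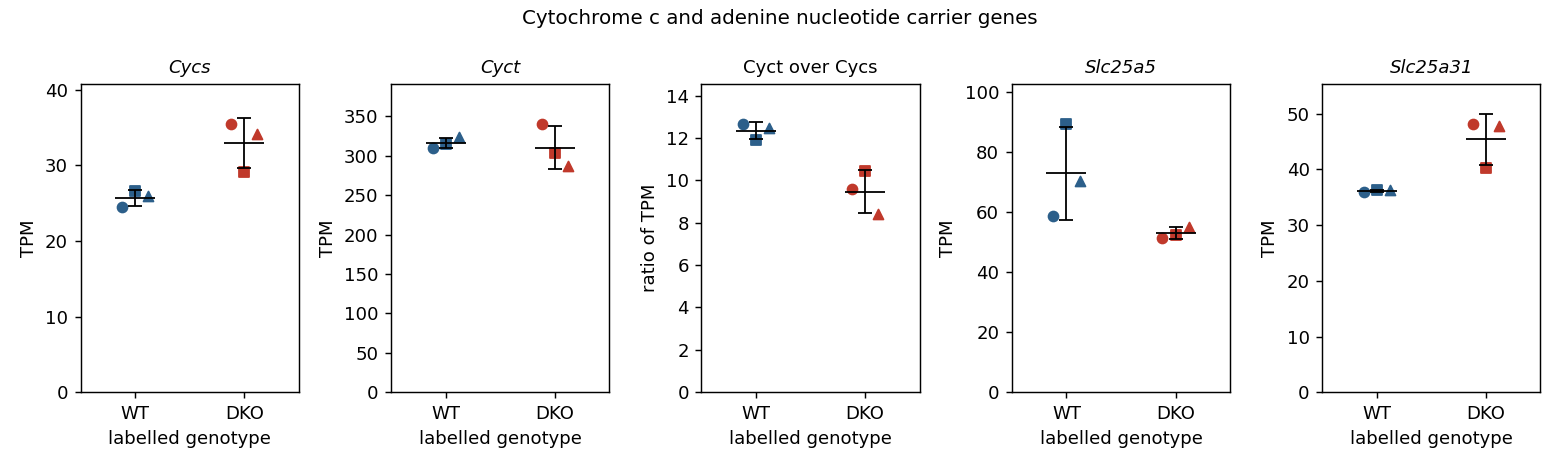
TPM of Cycs, Cyct, Slc25a5 and Slc25a31 and the TPM ratio of Cyct to Cycs in each library, by labelled genotype; symbols are replicates 1 to 3 and bars give the mean ± SD of 3 libraries, on axes that start at 0. Cycs and Slc25a31 are higher in all 3 libraries labelled DKO, and the ratio lies between 8.40 and 10.4 there and between 11.9 and 12.7 in those labelled WT.

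In the ATP synthase 5 of 15 subunit genes were called lower in the counts and 0 higher, against 5.1% and 5.75% of all tested genes, and the genes of the catalytic subunits were not among them. With the offset 2 were called lower and 1 higher, and on log2(TPM + 1) limma called 2 lower and 0 higher. The head is built from Atp5a1 and Atp5b, the alpha and beta subunits that make ATP. Atp5a1 had 330, 335 and 349 CPM in the libraries labelled DKO and 332, 350 and 334 CPM in those labelled WT, and Atp5b had 573, 566 and 586 against 555, 509 and 516 CPM. Their log2 fold changes were -0.0014 and 0.13, and neither was called (edgeR adjusted p = 0.992 and 0.228). Atp5c1, the gamma subunit of the rotating stalk, had a log2 fold change of 0.19 (edgeR adjusted p = 0.0978).

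Atp5d (chr10:80138698-80145828), the delta subunit of the same stalk, fell in both fits. It had 66.7, 84.3 and 77.7 CPM in the libraries labelled DKO against 108, 109 and 106 CPM in those labelled WT, with no overlap. The log2 fold change was -0.50 (SE 0.0862; edgeR adjusted p = 0.0233) and with the offset -0.43 (SE 0.0807; adjusted p = 0.0276). Its length was 931 bases and the log2 ratio of its effective lengths -0.11. Atp5e (chr2:174461075-174464101), the epsilon subunit of 414 bases, had 44.8, 54.5 and 55.8 against 74.0, 71.5 and 69.3 CPM. With counts alone the log2 fold change was -0.47 (SE 0.0886; edgeR adjusted p = 0.0248), against -0.13 with the offset (adjusted p = 0.254) and an effective-length ratio of -0.38.

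The membrane part contains the c-ring, which turns with the proton flow, and small subunits that hold ATP synthase dimers together. Atp5k (chr5:108433246-108434399), subunit e, has a length of 292 bases and was the shortest of the 38 genes. It had 23.7, 29.9 and 26.3 CPM in the libraries labelled DKO against 41.7, 48.3 and 41.5 CPM in those labelled WT (log2 fold change -0.72, SE 0.0988; edgeR adjusted p = 0.0153). Its mean effective length was 48.9 bases in the libraries labelled DKO and 75.0 bases in those labelled WT, a log2 ratio of -0.62. In TPM it had 777, 733 and 815 against 863, 951 and 831, and with the offset its change was -0.14 (SE 0.0709; adjusted p = 0.205). Atp5l (chr9:44913248-44920742), subunit g, had 54.6, 72.0 and 65.7 against 86.2, 96.9 and 93.2 CPM. It was lower in both fits, at -0.52 (SE 0.098; edgeR adjusted p = 0.0243) and -0.30 with the offset (SE 0.0766; adjusted p = 0.0409). Atp5j2, subunit f, has 477 bases, between Atp5k and Atp5l, and was not called: its log2 fold change was 0.07 and with the offset 0.33 (edgeR adjusted p = 0.721 and 0.0696), and DKO replicate 3 stood above the other libraries at 51.0 CPM.

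The 3 c-ring genes, Atp5g1, Atp5g2 and Atp5g3, encode the same mature protein behind different import signals. Their coding sequences were 71.1% to 76.1% identical in pairs, and none had fractional counts. Atp5g3 (chr2:73908447-73912464) had 36.3, 41.0 and 46.3 CPM in the libraries labelled DKO against 47.0, 64.5 and 52.8 CPM in those labelled WT, a gap of less than 1 CPM between DKO replicate 3 and WT replicate 1. Its log2 fold change was -0.41 (SE 0.119; edgeR adjusted p = 0.049), and with the offset -0.29 (adjusted p = 0.0845). Atp5g1 and Atp5g2 had log2 fold changes of -0.21 and -0.25 and were not called (edgeR adjusted p = 0.151 and 0.135). Per length, Atp5g3 gave the most c-ring transcript in every library, at 175 ± 32.1 TPM in those labelled WT, against 87.1 ± 1.47 for Atp5g1 and 74.0 ± 6.23 for Atp5g2 (SD, n = 3).

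The peripheral stalk, which keeps the head from turning, had no gene called in the counts (edgeR; 1 of its 4 genes at an unadjusted p under 0.05, and 0 by DESeq2). Over all tested genes edgeR called 10.8%, with 31.7% at an unadjusted p under 0.05. Atp5h (chr11:115415691-115419919), subunit d, had 80.6, 80.1 and 92.4 CPM in the libraries labelled DKO and 75.7, 79.2 and 81.7 CPM in those labelled WT, with overlap. Its log2 fold change was 0.10 (SE 0.0774; edgeR adjusted p = 0.417), and with the offset 0.28 (SE 0.0718; adjusted p = 0.0401). In TPM it had 429, 379 and 458 against 340, 363 and 370 and was not called (limma adjusted p = 0.0976). Atp5f1, Atp5j and Atp5o, the other stalk subunits, had log2 fold changes of -0.08, -0.06 and -0.21. The assembly factors Atpaf1 and Atpaf2, which build the head, had 0.05 and -0.14, and Atp5s and Atp5sl, whose symbols start with Atp5 and which RefSeq now names Dmac2l and Dmac2, had 0.18 and 0.04. None of these 7 genes was called in either fit, against 10.8% of all tested genes in the counts and 9.7% with the offset.

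Partners of the same complexes outside the rule gave 4 calls among 15 tested genes, 2 in each direction, against 5.1% lower and 5.75% higher over all tested genes. With the offset 3 were called higher and 1 lower. On log2(TPM + 1) limma called only 2010107E04Rik (adjusted p = 0.0278), with Uqcc3 at 0.0541, Slc25a31 at 0.0543 and Slc25a5 at 0.0721. Slc25a31, the adenine nucleotide carrier of germ cells, which exchanges ATP for ADP across the inner membrane, had 61.7, 53.2 and 59.0 CPM in the libraries labelled DKO against 46.3, 43.0 and 45.2 CPM in those labelled WT (log2 fold change 0.37, edgeR adjusted p = 0.0269; the same 0.37 with the offset, adjusted p = 0.0293). Slc25a5, a carrier of the same family found in many tissues, had 35.8, 38.3 and 37.8 against 42.3, 59.9 and 49.3 CPM (log2 fold change -0.44, edgeR adjusted p = 0.036; -0.41 with the offset, adjusted p = 0.0413). 2010107E04Rik, a small proteolipid bound to the ATP synthase, has a length of 365 bases and rose from 20.4, 19.9 and 22.5 CPM to 25.9, 25.7 and 31 CPM (log2 fold change 0.40, edgeR adjusted p = 0.0343; 0.82 with the offset, adjusted p = 0.0119). Uqcc3, a complex III assembly factor, was lower, at -0.43 (edgeR adjusted p = 0.0373), or -0.34 with the offset (adjusted p = 0.0531). Usmg5, another small ATP synthase protein, has a length of 341 bases and was called only with the offset (log2 fold change 0.53, edgeR adjusted p = 0.0376). In the counts its log2 fold change was 0.06 (edgeR adjusted p = 0.783). With the offset 10.9% of all tested genes under 500 bases were called higher and 8.53% lower.

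The neighbouring complexes of the respiratory chain are given for comparison, and differences between the lists were not tested. Of 45 complex I genes (symbols starting with Nduf) 12 were called lower and 0 higher, with a median log2 fold change of -0.18, and with the offset 7 lower and 1 higher, with a median of -0.04. Of 15 tested cytochrome c oxidase genes (Cox4 to Cox8) 7 were called lower and 0 higher, with a median of -0.36, and with the offset 1 lower and 2 higher, with a median of -0.19. Over all tested genes 5.1% were called lower and 5.75% higher, and with the offset 4.12% and 5.58%. The median length was 949 bases for the 38 genes, 739 for complex I and 545 for cytochrome c oxidase. Of all tested genes from 500 to 1000 bases 13.6% were called lower in the counts and 7.53% with the offset. Under 500 bases these shares were 31.3% and 8.53%. Called higher with the offset were 9.04% and 10.9% of the 2 length classes. In each of the lists fewer genes were called lower once effective length was in the fit.

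Strand handling is not stated, so counts of genes that overlap others are uncertain. Exons of another annotated gene lie over 9 of the 38 genes, among the called ones only over Atp5l (an antisense RNA). By whole RefSeq spans, the called genes Sdhc, Uqcrq, Uqcr10, Atp5d and Atp5l overlap another gene; of these neighbours only Gdf9, which shares 58 bases with Uqcrq, was tested, with a log2 fold change of -0.12 (edgeR adjusted p = 0.382).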

How the data were processed

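Testis RNA was sequenced in 6 libraries. Per the submitters' processing notes, STAR 2.7.0f, RSEM 1.2.31 and DESeq2 1.12.3 were used with mm10; their order, the strand setting and filters are not given in the sources used here. Per the file headers, the authors deposited expected counts (estimated fragments per gene, not normalized), TPM (scaled by effective length) and lengths in bases for each library. Expected counts were rounded, filtered by filterByExpr, scaled by TMM and tested with the edgeR 4.0.16 quasi-likelihood test over all 6 libraries, with Benjamini-Hochberg adjustment. The SE is the absolute log2 fold change over the root of F. For each library the mean fragment length was recovered from the 2 deposited lengths (length less effective length, plus 1), as the median over genes above 3000 bases. Alternatives (limma 3.58.1, DESeq2 1.42.0, an effective-length offset, other filters, each library left out) are given at the end. The edgeR fits with and without the offset were tested on simulated data; the other alternatives were not. Named genes were every gene called with or without the offset, all 4 complex II subunits, the 3 cytochrome genes, Atp5a1, Atp5b and the large complex III subunits. The 38 genes and all lists were chosen with earlier results of these data known. Nothing states that the libraries came from separate animals, so p-values measure the spread between these libraries, which may be technical. Replicates were numbered in accession order. No library pair agreed within sampling noise.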

Additional observations from a re-analysis of the deposited data

How the results depend on the processing

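No paired analysis was possible because the labels give no number shared between the groups. All 1856 genes called became 7 at an adjusted p under 0.01, 1 with the fragment length covariate, 2943 with DESeq2, 735 on log2(TPM + 1) and 947 on log2(TPM + 0.1); without one library they ranged from 7 to 3029, and with the offset as well, chosen after seeing the data, from 5 to 2778. Among the 38, edgeR called 0 at an adjusted p under 0.01 and 0 with the covariate, whose median reversed to 0.027. The offset gave 7 (2 higher, 5 lower), against 5 on log2(TPM + 1) (0 higher, 5 lower), and 6 on log2(TPM + 0.1) (5 lower). DESeq2 called 2 higher. Without one library the called members ranged from 0 to 12 (0 to 2 higher, 0 to 10 lower) and the median from -0.19 to -0.13; with the offset as well, from 0 to 7 (0 to 3 higher, 0 to 5 lower), with a median from -0.11 to -0.066. Calls fell to 0 without DKO replicate 1, WT replicate 2 or WT replicate 3. The cause was not tested. Signs reversed with the covariate for Atp5a1 (0.0995), Atp5g3 (0.11), Sdha (0.0794), Sdhb (0.0332), Sdhd (0.0502) and Uqcrc1 (0.0051), without a filter for Atp5a1 (0.0073), and with the offset for Cyct (0.0188) and Uqcrfs1 (0.0133). Without one library Atp5a1 ranged from -0.032 to 0.016, Uqcrfs1 from -0.062 to 0.0044 and Cyct from -0.17 to -0.072; with the offset as well, Atp5a1 from -0.042 to 0.0079, Uqcrfs1 from -0.04 to 0.032 and Cyct from -0.068 to 0.096. Of the other single-gene values, 323 kept direction and call, 114 kept direction and lost the call, and 5 gained one.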
